A study of Mus musculus with 6 samples.

Results

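Macrophages of the liver are held in their identity by a small group of transcription factors, and the mRNA levels of 9 of them are described here in liver F4/80-positive cells. The members were chosen by gene symbol as lineage and Kupffer cell identity factors: *Spi1*, *Cebpb*, *Irf8*, *Maf*, *Zeb2*, *Id1*, *Id3*, *Spic* and *Rbpj*. All 9 were found among the 49315 Ensembl genes counted, and all 9 had enough counts to be tested. None differed between WT and Lpcat3KOMac mice beyond the spread between mice. The member with the lowest level relative to WT was *Id3*, at 80.6% of the WT mean, and the 95% interval of its difference still included 0.

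The cells came from the livers of mice with a deletion of *Lpcat3*, the enzyme that puts arachidonic acid and other polyunsaturated fatty acids into phospholipids, and of their littermates. Lpcat3KOMac mice were Lpcat3 fl/fl with LysM Cre/+, and WT mice were Lpcat3 fl/fl with LysM +/+, so that the controls carried the floxed alleles too but no Cre, and both were on the C57BL/6N background. All mice had received an HFD with 60% fat for 16 weeks and no other treatment. The study gives a range of ages at the start of its diets and used male and female mice, but the labels give neither age nor sex for these mice. After collagenase perfusion, F4/80-positive cells were taken from the supernatant with magnetic beads, and 1 poly-A library was sequenced for each of 3 WT and 3 Lpcat3KOMac mice. The Cre is driven from the *LysM* (*Lyz2*) locus, which is active in macrophages, monocytes and neutrophils, and the study describes its deletion as partial. *Lpcat3* itself stood at 85.0, 66.2 and 61.2 CPM across the WT mice and 19.5, 33.3 and 19.4 CPM across the Lpcat3KOMac mice, without overlap. Its log2 fold change was -1.56 ± 0.26 (SE, the standard error), with an unadjusted p of 0.00119 and an adjusted p of 1 in edgeR.

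Macrophages arise when PU.1, the product of *Spi1*, opens macrophage enhancers together with C/EBP and IRF proteins. In the liver, signals from endothelial and stellate cells (Notch ligands, TGF-beta and BMP proteins) then act through RBPJ and SMAD proteins, and LXR-alpha, ID1, ID3, ZEB2, c-MAF and SPIC take part in setting or keeping the Kupffer cell program. ID proteins bind no DNA and hold E proteins away from it, whereas the others bind DNA themselves, among them RBPJ, which passes on a receptor's signal there.

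The levels below are CPM, read counts scaled by the size and (by the TMM method) the composition of each library, and values across mice are listed in the order of mice 1, 2 and 3. Total counts lay between 44954224 and 71392812 per library, and the lowest count of any member was 1054 (*Id1* in Lpcat3KOMac mouse 3), so that counting error was small beside the spread between mice. The preparation was rich in Kupffer cells but not pure. Summed over 7 Kupffer cell markers the level lay between 25400 and 34600 CPM in WT and between 19200 and 27600 CPM in Lpcat3KOMac mice. Summed over 5 hepatocyte transcripts it stood at 22400, 2000 and 1780 CPM across the WT mice and 4900, 13600 and 4760 CPM across the Lpcat3KOMac mice. WT mouse 1 and Lpcat3KOMac mouse 2 therefore carried the most hepatocyte RNA, and results are also given without them. In bulk samples such as these, fewer cells of a type and less RNA per cell cannot be told apart.

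Markers of other cells were lower in sum. The 9 sinusoidal endothelial markers summed to between 1090 and 1220 CPM in WT and between 1160 and 1550 CPM in Lpcat3KOMac mice, and the 7 stellate markers to between 68.2 and 184 CPM and between 132 and 233 CPM. The 6 monocyte markers summed to between 96.6 and 162 CPM in WT and between 92.6 and 166 CPM in Lpcat3KOMac mice, a sum carried by *Ccr2* and *Plac8*. Of these 6 markers 2 were higher in Lpcat3KOMac mice at an unadjusted p under 0.05 in edgeR, *Chil3* (log2 fold change 1.70, unadjusted p = 0.0354) and *F13a1* (1.05, unadjusted p = 0.0423), and the median of the list was 0.43. The neutrophil marker *S100a8* (0.99, unadjusted p = 0.0353) and the T cell marker *Cd3d* (1.11, unadjusted p = 0.0239) were also higher, each at a low level of at most 2.19 and 0.255 CPM in a mouse. Of the 6 neutrophil markers, summing to between 81.5 and 159 CPM and between 82.5 and 144 CPM, nearly all of the level was *Csf3r*, and the defining marker *Ly6g* was at or below 0.0637 CPM in every library. Conventional dendritic cell markers reached at most 61.3 CPM and B cell markers 29.2 CPM, while plasmacytoid dendritic (2.04 CPM), T and NK cell (2.53 CPM) and cholangiocyte markers (1.14 CPM) were close to 0 throughout.

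Among the lineage factors, *Spi1* (ENSMUSG00000002111, GRCm38 chr2:91082390-91115756, plus strand) encodes PU.1, the ETS factor without which macrophages do not form. It was measured at 440, 583 and 539 CPM across the WT mice and 467, 457 and 501 CPM across the Lpcat3KOMac mice. All Lpcat3KOMac values lay inside the range of WT mice, whose lowest value was that of mouse 1. The means were 521 ± 73.3 CPM (SD, n = 3) and 475 ± 22.8 CPM (SD, n = 3), and the log2 fold change was -0.13 with a 95% interval from -0.44 to 0.18. In edgeR the unadjusted p was 0.332.

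*Cebpb* (ENSMUSG00000056501, chr2:167688915-167690418, plus strand) encodes a C/EBP factor that is induced by inflammatory signals and takes part in macrophage gene activation. It stood at 177, 139 and 176 CPM across the WT mice and 158, 149 and 141 CPM across the Lpcat3KOMac mice. WT mouse 2 was the lowest of all 6, whereas the other WT mice were above every Lpcat3KOMac mouse. The means of 164 ± 21.9 CPM (SD, n = 3) and 149 ± 8.3 CPM (SD, n = 3) gave a log2 fold change of -0.13 (95% interval -0.43 to 0.17, unadjusted p = 0.317 in edgeR). Without WT mouse 2 the groups did not overlap and the log2 fold change was -0.24, with an unadjusted p of 0.0482 and an adjusted p of 1 in edgeR. In that comparison 12.4% of all genes did not overlap and 1.37% had an unadjusted p under 0.05. *Tmem189* lies on the opposite strand and shares 312 exonic bases with *Cebpb*. It had at most 3341 counts in a library, where *Cebpb* had at least 6646, and since the strand setting is not given in the sources used here, reads of that stretch cannot be assigned.

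*Irf8* (ENSMUSG00000041515, chr8:120736358-120756694, plus strand) encodes an interferon regulatory factor that directs myeloid precursors towards monocytes and dendritic cells and is kept by Kupffer cells. Its levels were 234, 277 and 319 CPM across the WT mice and 292, 288 and 261 CPM across the Lpcat3KOMac mice. All Lpcat3KOMac values fell within the WT range, so the groups overlapped fully. The means, 277 ± 42.8 CPM (SD, n = 3) and 280 ± 16.7 CPM (SD, n = 3), differed by 0.019 on the log2 scale (95% interval -0.31 to 0.35, unadjusted p = 0.893 in edgeR). Conventional dendritic cells also use *Irf8*, and their 6 markers summed to 22.1, 32.2 and 61.3 CPM in WT and to 42.2, 35.6 and 39.7 CPM in Lpcat3KOMac mice. Among WT mice this sum, like *Irf8*, was lowest in mouse 1 and highest in mouse 3. Most of it was *Clec9a* (13.8, 25.6 and 51.3 CPM across the WT mice), while *Flt3*, *Cd209a* and *Zbtb46* were lowest in WT mouse 2. Among Lpcat3KOMac mice the sum was lowest in mouse 2, but *Irf8* in mouse 3. The part of dendritic cells in the *Irf8* level was not tested.

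*Maf* (ENSMUSG00000055435, chr8:115682942-115707794, minus strand) encodes c-MAF, a factor that keeps mature macrophages from dividing. It was at 471, 549 and 536 CPM across the WT mice and 511, 441 and 469 CPM across the Lpcat3KOMac mice. It was the steadiest member in WT mice, with a coefficient of variation of 8.15%. The groups overlapped because WT mouse 1 lay below Lpcat3KOMac mouse 1. The means of 519 ± 42.3 CPM (SD, n = 3) and 474 ± 35 CPM (SD, n = 3) gave a log2 fold change of -0.13 (95% interval -0.38 to 0.12, unadjusted p = 0.251 in edgeR).

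*Zeb2* (ENSMUSG00000026872, chr2:44983632-45117395, minus strand) encodes a zinc finger repressor that preserves the tissue identity of resident macrophages. It varied widely among WT mice, at 249, 469 and 340 CPM, and little among Lpcat3KOMac mice, at 338, 321 and 378 CPM. Both the highest and the lowest value were in WT mice, 1.88-fold apart, with all Lpcat3KOMac values between them. The means were 353 ± 110 CPM (SD, n = 3) and 346 ± 29.1 CPM (SD, n = 3). The log2 fold change of -0.03 had a 95% interval from -0.61 to 0.55 (unadjusted p = 0.901 in edgeR) and turned to 0.055 when libraries were scaled by total counts alone. An antisense gene, *Zeb2os*, overlaps 467 exonic bases of *Zeb2*, but had at most 1332 counts in a library against at least 15567 for *Zeb2*.

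Of the factors tied to Kupffer cell identity, *Id3* (ENSMUSG00000007872, chr4:136143497-136145755, plus strand) encodes an inhibitor of E proteins that Kupffer cells need for their development. Its level was 221, 292 and 309 CPM across the WT mice and 225, 213 and 224 CPM across the Lpcat3KOMac mice. The Lpcat3KOMac mice were close together, with a coefficient of variation of 2.94%, and lay below WT mice 2 and 3 but around WT mouse 1. The means of 274 ± 46.8 CPM (SD, n = 3) and 221 ± 6.49 CPM (SD, n = 3) gave a log2 fold change of -0.31 ± 0.14 (SE, 95% interval -0.66 to 0.035). This is an interval from 63.4% to 102% of the WT level. The unadjusted p was 0.07 and the adjusted p 1 in edgeR. The two-sided exact permutation test gave 0.3, where 0.1 is the smallest value possible with 3 mice against 3.

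The *Id3* difference was larger where WT mouse 1 did not enter. This mouse had the lowest WT value, so that leaving it out alone had to raise the WT mean and widen the difference. Without that mouse the log2 fold change was -0.44 with an unadjusted p of 0.00223 in edgeR, and without both it and Lpcat3KOMac mouse 2 it was -0.42 with an unadjusted p of 0.00496. The adjusted p was 0.294 and 0.155, so that *Id3* did not pass in either case. With a covariate for the hepatocyte transcripts (their mean on the log2 scale) the log2 fold change was -0.23 (unadjusted p = 0.0177, adjusted p = 0.498 in edgeR). These settings raised the share of all genes with an unadjusted p under 0.05 as well, from 2.64% to 12.3% without WT mouse 1, 11.0% without both mice and 9.03% with the covariate. With any single mouse other than WT mouse 1 left out, the *Id3* difference was smaller than with all mice. Its log2 fold change then lay between -0.29 and -0.22, with an unadjusted p between 0.135 and 0.207 in edgeR.

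When each member was set against the geometric mean of the 9 in the same library, a description added after the values had been seen, *Id3* was the member whose groups no longer overlapped. Its log2 ratio to that mean was 0.70, 0.69 and 0.78 across the WT mice and 0.46, 0.52 and 0.50 across the Lpcat3KOMac mice. The difference of -0.23 had an exact permutation p of 0.1, the smallest possible, and the other 8 members overlapped on this scale. The share of all genes without overlap on this scale was not determined, so the *Id3* result has no background to be read against.

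The RefSeq promoter table (GRCm38.p6, 250 bases before to 50 after a gene start) held 11 windows for 6 of the 9 members, *Id3*, *Cebpb*, *Irf8*, *Spic*, *Zeb2* and *Rbpj*. Windows of *Id3* and *Irf8* each held the letters TATAA a short way before the gene start, a sequence that places the start of transcription. These letters occurred on either strand in 24.9% of all 32851 windows of the table. The stretches around them are shown 5′ to 3′ with TATAA in capitals, because they are the core promoters of the member with the lowest level relative to WT and of a member at the WT level. The *Id3* stretch, chr4:136143781-136143810 on the plus strand, begins 41 bases before the RefSeq start and lies in the exon that GENCODE M21 starts further upstream. That of *Irf8*, chr8:120736315-120736344 on the plus strand, begins 43 bases before it.
Id3: tagagaggactcTATAAgagtcggccgctg
Irf8: ccccgccccatcTATAAaagcaggcgcgcg

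*Id1* (ENSMUSG00000042745, chr2:152736251-152737410, plus strand) is a BMP target that encodes the sister protein of ID3. It was low, at 21.6, 29.7 and 33.4 CPM across the WT mice and 29.8, 24.8 and 22.4 CPM across the Lpcat3KOMac mice. The groups overlapped over nearly their whole range. The means of 28.2 ± 6.03 CPM (SD, n = 3) and 25.7 ± 3.77 CPM (SD, n = 3) gave a log2 fold change of -0.14 (95% interval -0.62 to 0.35, unadjusted p = 0.511 in edgeR). Endothelial cells also express *Id1*, and their markers summed to 1090, 1120 and 1220 CPM across the WT mice and to 1550, 1380 and 1160 CPM across the Lpcat3KOMac mice. Within each genotype *Id1* and this sum had the same order over the 3 mice, but most single markers did not share it in WT mice. Like *Id1*, *Stab2* (371, 489 and 482 CPM) and *Pecam1* (206, 283 and 209 CPM) were lowest in WT mouse 1. *Clec4g*, *Lyve1*, *Kdr*, *Oit3*, *Dnase1l3*, *Ptprb* and *Egfl7* were all lowest in WT mouse 2. This is a description over few points, and endothelial cells were not tested as a source.

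*Spic* (ENSMUSG00000004359, chr10:88674772-88685015, minus strand) encodes an ETS factor related to PU.1 that heme induces, through loss of the repressor BACH1, in macrophages that recycle iron. It was the most variable member. It was at 62.0, 132 and 96.2 CPM across the WT mice and 96.4, 79.7 and 116 CPM across the Lpcat3KOMac mice. WT mice differed 2.12-fold among themselves and enclosed all Lpcat3KOMac values. The means were 96.6 ± 34.8 CPM (SD, n = 3) and 97.4 ± 18.2 CPM (SD, n = 3). They gave a log2 fold change of 0.011. Its 95% interval, from -0.72 to 0.74, reached from 60.8% to 167% of the WT level, so that changes of that size were not detectable with these mice (unadjusted p = 0.97 in edgeR).

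The 250 bases before the RefSeq start of *Spic*, chr10:88683024-88683273 on the minus strand, are shown 5′ to 3′ because *Spic* is the member regulated by heme and BACH1. The stretch lies inside the gene as GENCODE M21 draws it, which starts further upstream, at position 88685015. In capitals are TGCTGA, the core of the element that Maf and BACH1 proteins bind, and ACTTCC, which is the ETS core GGAAGT on the other strand. TGCTGA was found on either strand in 19.5% and GGAAGT in 23.8% of all windows, so that neither is rare. A match is a description and not a site of binding.
Spic: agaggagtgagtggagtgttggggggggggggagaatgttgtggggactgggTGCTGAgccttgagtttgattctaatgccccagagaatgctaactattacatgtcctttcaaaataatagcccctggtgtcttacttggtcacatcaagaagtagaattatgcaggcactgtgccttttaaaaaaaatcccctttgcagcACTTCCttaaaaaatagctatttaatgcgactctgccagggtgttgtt

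*Rbpj* (ENSMUSG00000039191, chr5:53466152-53657362, plus strand) encodes the DNA-binding partner of the Notch receptors, which relays the endothelial Notch signal to cells that become Kupffer cells. It was at 24.8, 32.3 and 37.1 CPM across the WT mice and 35.3, 30.1 and 32.4 CPM across the Lpcat3KOMac mice. Again the Lpcat3KOMac values lay inside the WT range. The means of 31.4 ± 6.18 CPM (SD, n = 3) and 32.6 ± 2.63 CPM (SD, n = 3) gave a log2 fold change of 0.055 (95% interval -0.35 to 0.46, unadjusted p = 0.751 in edgeR). The pseudogenes *Rbpj-ps1* and *Rbpj-ps3*, to which reads of *Rbpj* could be lost, held at most 1 and 7 counts in a library.

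**Figure D1:**
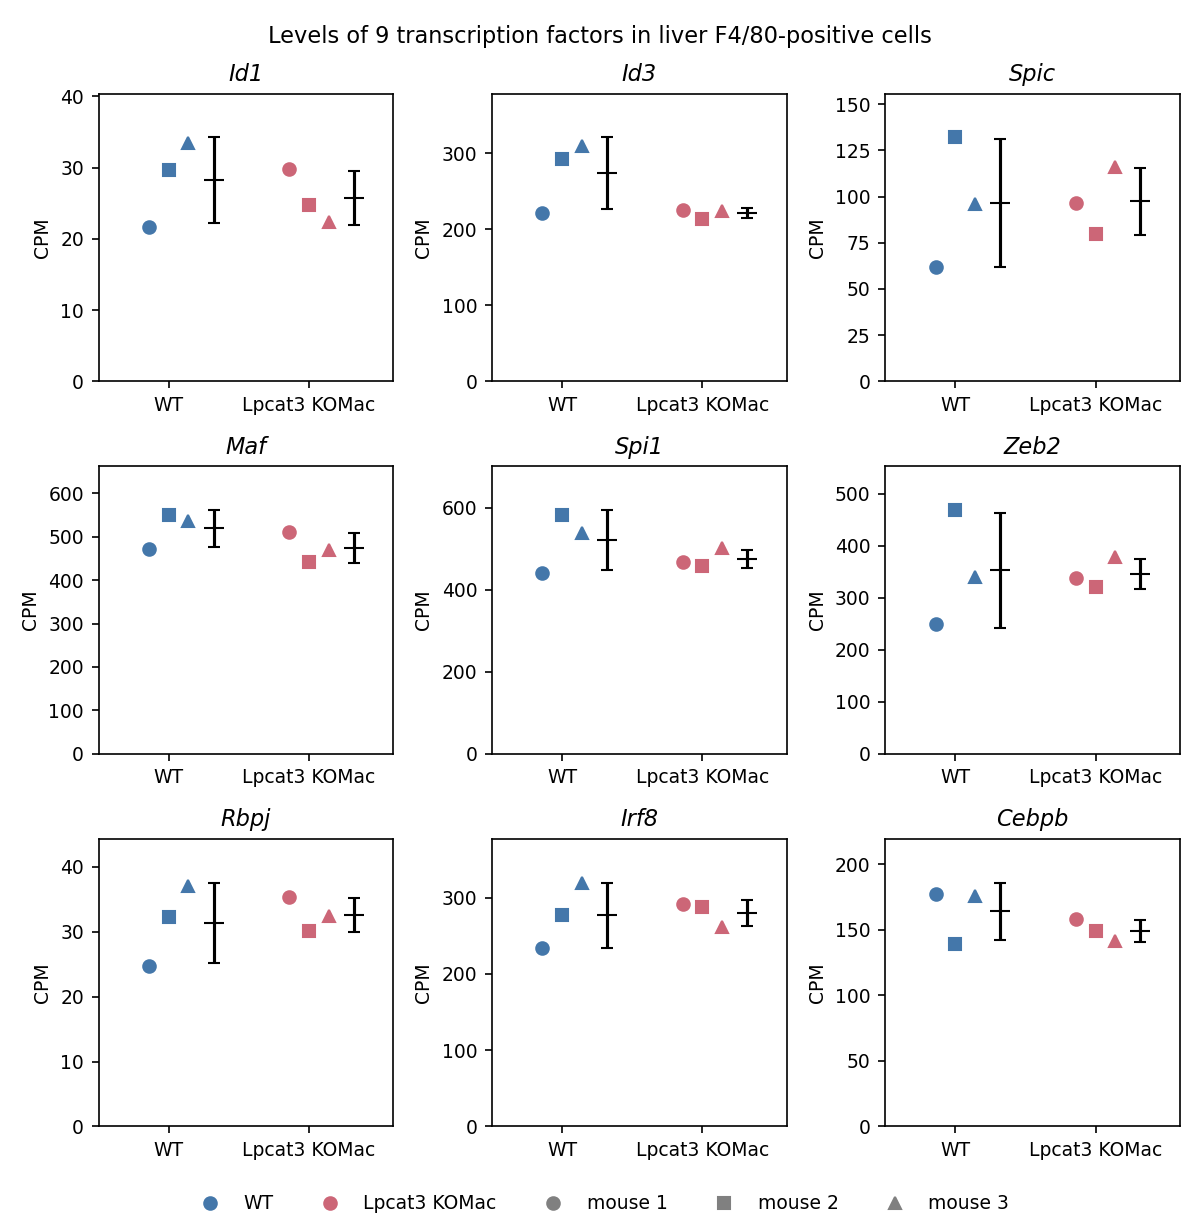
Level of each of the 9 transcription factors in CPM (y axis, starting at 0, separate scale per gene) in WT (blue) and Lpcat3KOMac mice (red). Symbols mark mice 1 to 3 of each genotype, and bars give the mean ± SD of 3 mice. The red points lie within or across the blue range for all 9 genes, and mouse 1 is the lowest WT mouse for 8 of them.

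Set side by side, 6 members had a log2 fold change below 0 and 3 above 0, from -0.31 for *Id3* to 0.055 for *Rbpj*. With edgeR's quasi-likelihood test 0 of the 9 passed an adjusted p of 0.05, as did 0 of all 16134 genes tested (0.0%). An unadjusted p under 0.05 was reached by 0 members, against 426 of all genes (2.64%), and the groups did not overlap for 0 members, against 1208 of all genes (7.49%). DESeq2 called 11 genes and limma-voom 0 at an adjusted p of 0.05, no member among them. Of the genes whose groups did not overlap, 369 were higher and 839 lower in Lpcat3KOMac mice with TMM scaling, but 796 were higher and 232 lower with total counts alone.

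The median log2 fold change was -0.13 over the members and -0.039 over all genes tested. The median size of the difference, without its sign, was 0.13 for the members, 0.12 for all genes tested and 0.089 for the 9071 genes with a mean of at least 10 CPM. With total counts alone the median of the members was -0.037, while the median of all genes moved to 0.057.

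**Figure D2:**
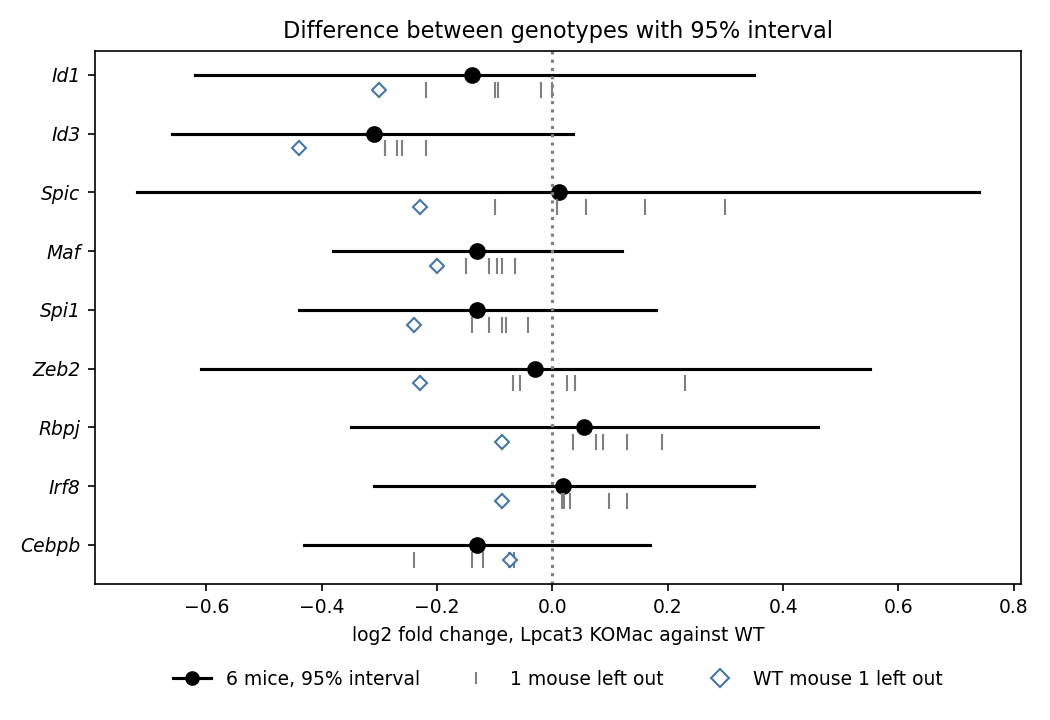
Log2 fold change of each member, Lpcat3KOMac against WT (x axis), from edgeR's fit of 6 mice (black points) with its 95% interval (black lines). Grey ticks give the values with 1 mouse left out and open diamonds those without WT mouse 1. Every black line crosses 0, and without WT mouse 1 all 9 values are below 0.

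The spread between mice followed the same libraries for many members. WT mouse 1 was the lowest WT mouse for 8 of the 9 members, all but *Cebpb*, while it was the lowest for 44% of all genes tested. It was the lowest of all 6 mice for 6 members, *Id1*, *Spic*, *Spi1*, *Zeb2*, *Rbpj* and *Irf8*. Among Lpcat3KOMac mice, mouse 2 was the lowest for 6 members, against 38.7% of all genes tested. The geometric mean of the 9 members was 136, 181 and 181 CPM across the WT mice and 164, 149 and 158 CPM across the Lpcat3KOMac mice. The lowest mouse of each genotype on this measure was the mouse with the highest sum of hepatocyte transcripts of that genotype. Whether hepatocyte RNA accounts for their lower levels was not tested.

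Leaving out WT mouse 1 moved every member downwards except *Cebpb*, so that all 9 log2 fold changes were below 0. *Id3*, *Maf* and *Spi1* then no longer overlapped between genotypes. The share of all genes without overlap was 32.2% in that comparison of 2 WT with 3 Lpcat3KOMac mice, close to the members' 3 of 9. *Maf* was at -0.20 (unadjusted p = 0.107) and *Spi1* at -0.24 (unadjusted p = 0.0517) in edgeR without this mouse. Without both WT mouse 1 and Lpcat3KOMac mouse 2, also 3 members did not overlap, against 41.2% of all genes.

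**Figure D3:**
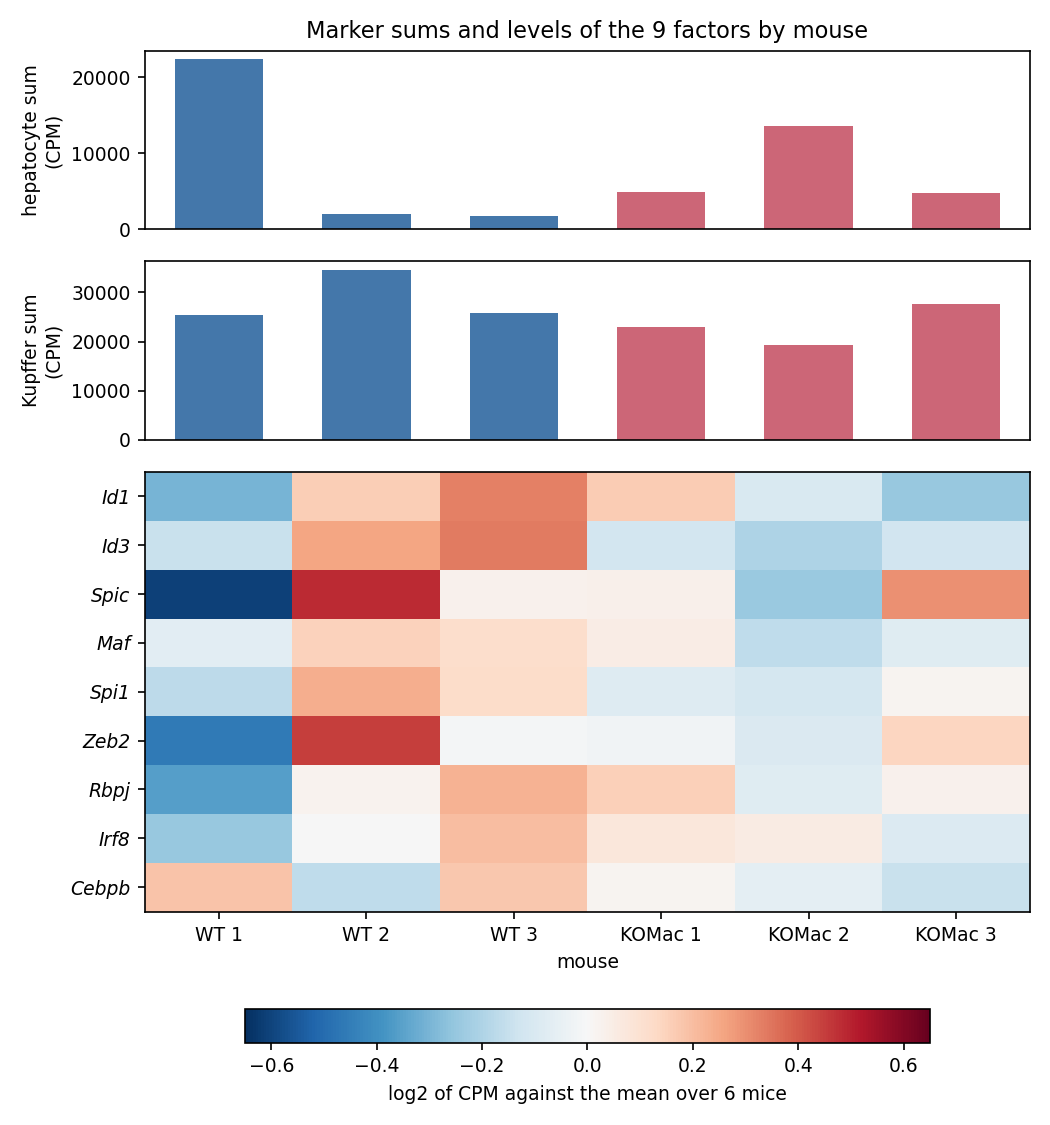
Summed CPM of 5 hepatocyte transcripts (upper bars) and of 7 Kupffer cell markers (lower bars) in each mouse, and below them the log2 of each member's CPM against its own mean over the 6 mice (blue below, red above the mean). WT mouse 1, with 22400 CPM of hepatocyte transcripts, is below the mean for 8 of 9 members, down to -0.60 for *Spic*, and WT mouse 2 reaches 0.49 for *Spic* and 0.45 for *Zeb2*.

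Some members followed a similar course over the 6 mice. The likeness of a pair was measured as the root mean square difference of their log2 CPM after each was centred on its own mean, so that 0 means the same course. The closest pairs were *Maf* and *Spi1* (0.0865), *Rbpj* and *Irf8* (0.0927) and *Spic* and *Zeb2* (0.11). *Spic* and *Zeb2* were both highest in WT mouse 2 and lowest in WT mouse 1, with Lpcat3KOMac mouse 3 the highest of its genotype. *Cd163*, *Marco* and *Timd4*, surface receptors of resident Kupffer cells named here after their values were seen, were highest in WT mouse 2 and, within Lpcat3KOMac mice, in mouse 3. This was not particular to them, since *Clec4f*, *Cd5l* and *Folr2* were highest in the same mice. Among WT mice the lows differed: *Cd163*, *Marco* and *Timd4* were lowest in mouse 3, but *Spic* and *Zeb2* in mouse 1. Within Lpcat3KOMac mice all of them were lowest in mouse 2, which for the 3 receptors was the lowest of all 6 mice. *Marco*, for example, stood at 1080, 3170 and 999 CPM across the WT mice and 1350, 148 and 2860 CPM across the Lpcat3KOMac mice.

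By the same measure, the gene most like each member was sought among 9070 other genes with a mean of at least 10 CPM. *Spic* was followed most closely by *Flna* (0.0627), which encodes the actin crosslinker filamin A, and the potassium channel gene *Kcnj10* (0.0675). *Zeb2* was followed by *Mtr* (0.0431), encoding methionine synthase, and *Herc2* (0.0499), encoding a ubiquitin ligase. Nearest to *Irf8* were the homeobox gene *Hlx* (0.0339) and *Hnrnpa1* (0.0373), and to *Rbpj* they were *Purb* (0.0343) and *U2surp* (0.0358). *Id3* was nearest to *Limd2* (0.0497) and *Tnfrsf26* (0.0522), and *Id1* to *Nsl1* (0.0554) and *Nlrc5* (0.0729). For *Spi1* these were *Slc25a45* (0.0188) and *Ahcyl2* (0.0241), for *Maf* they were *Rap1b* (0.0228) and *Ppp1r18* (0.0273), and for *Cebpb* they were *Trp53rka* (0.0293) and *Gtf2e2* (0.0401). A close match was common for the steady members and less so for the variable ones: 1202 genes lay within 0.1 of *Maf*, but 18 of *Spic*. Such likeness over 6 mice that share libraries is a description.

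Compared per kilobase of exon (RPKM), *Spi1* was the most abundant member, at 193 ± 27.2 RPKM (SD, n = 3) in WT and 176 ± 8.47 RPKM (SD, n = 3) in Lpcat3KOMac mice. *Id3* followed at 153 and 123 RPKM, then *Cebpb* at 109 and 99.4 RPKM, *Maf* at 63 and 57.5 RPKM and *Irf8* at 39.2 and 39.7 RPKM. *Spic* was at 25.1 and 25.3 RPKM, *Id1* at 24.3 and 22.1 RPKM and *Zeb2* at 17.7 and 17.3 RPKM. *Rbpj* was by far the lowest, at 2.46 ± 0.485 RPKM (SD, n = 3) in WT and 2.56 ± 0.206 RPKM (SD, n = 3) in Lpcat3KOMac mice. The order was the same in both genotypes. Not all neighbours in it were apart: *Spic* and *Id1* overlapped in both genotypes, and *Spic* was the higher of them in 2 of 6 mice. *Spi1* and *Id3*, *Irf8* and *Spic*, and *Id1* and *Zeb2* overlapped in range among WT mice alone, although in each of the 6 mice the former of each pair was the higher. The order by CPM differs, since the exonic length of the members runs from 1160 bases for *Id1* to 19942 bases for *Zeb2*.

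**Figure D4:**
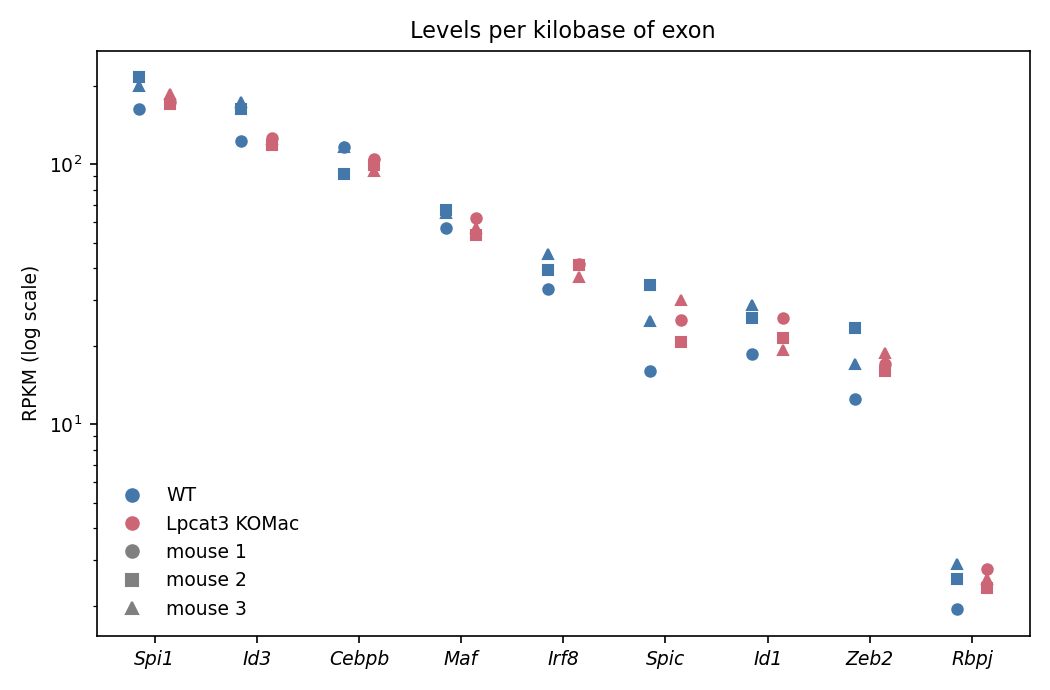
Level per kilobase of exon (RPKM, logarithmic y axis) of the 9 members, ordered by their WT mean, in WT (blue, left) and Lpcat3KOMac mice (red, right), with symbols for mice 1 to 3. The members span from 193 RPKM for *Spi1* to 2.46 RPKM for *Rbpj* in WT, and the genotypes lie side by side at each.

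Most members have close relatives, whose reads could be counted on them if the genes were alike over a whole read. In the coding sequences of 11 pairs of relatives (GENCODE M21), the longest run of identical bases was between 11 and 29 bases. *Id1* and *Id3* shared at most 11, *Spi1* and *Spic* 16 and *Zeb2* and *Zeb1* 23. The longest, 29 bases, was shared by *Cebpb* and *Cebpa* and encodes part of the basic region with which C/EBP proteins bind DNA. The shared runs of *Cebpb* with *Cebpa* and *Cebpd* and of *Spi1* with *Spic* are printed in lower case, as the stretches where these genes are hardest to tell apart.
Cebpb and Cebpa: cgcaacaacatcgcggtgcgcaagagccg
Cebpb and Cebpd: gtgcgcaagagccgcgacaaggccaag
Spi1 and Spic: acctaccagttcagcg

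Other genes of the members' pathways were read in the same edgeR fit, where no gene of any list passed an adjusted p of 0.05 and all adjusted p were 1. The counts below therefore use the unadjusted p, with 2.64% of all genes under 0.05 as background. Where groups without overlap are named, the background is 7.49% of all genes. Of the C/EBP relatives, 2 of 6 were lower at an unadjusted p under 0.05 and 0 were higher, and the list's median log2 fold change was -0.24. *Cebpg*, a dimer partner without an activation domain, was at 198, 180 and 189 CPM across the WT mice and 148, 141 and 145 CPM across the Lpcat3KOMac mice. The groups were well apart, and WT mouse 1 was the highest of all. The log2 fold change was -0.38 ± 0.073 (SE, unadjusted p = 0.00213). *Cebpd*, an acute-phase factor, was at 28.6, 38.9 and 34.8 CPM and at 27.1, 20.6 and 22.7 CPM, a log2 fold change of -0.54 ± 0.16 (SE, unadjusted p = 0.0159). The most abundant of these relatives, *Cebpa*, which hepatocytes express strongly, was at 511, 350 and 311 CPM and at 273, 368 and 308 CPM, highest in the mouse with the most hepatocyte RNA in each genotype.

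Of the 8 IRF relatives 1 was lower at an unadjusted p under 0.05, with a list median of -0.15. *Irf7*, the interferon-induced driver of type I interferon genes and the most abundant of the list, was at 714, 694 and 546 CPM in WT and at 567, 383 and 436 CPM across the Lpcat3KOMac mice. WT mouse 3 lay just below Lpcat3KOMac mouse 1, so the groups overlapped, and the log2 fold change was -0.50 ± 0.19 (SE, unadjusted p = 0.0376). *Irf2* and *Irf9*, named for their groups without overlap, had smaller differences of -0.15 and -0.18.

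Among 9 tested ETS and large Maf relatives, *Ets1* was the 1 gene past an unadjusted p of 0.05. It is an ETS factor of lymphocytes and endothelial cells and was higher in Lpcat3KOMac mice, at 69.2, 58.7 and 59.9 CPM against 39.7, 43.5 and 50.6 CPM, with a log2 fold change of 0.49 ± 0.12 (SE, unadjusted p = 0.00825). Of the 9 sinusoidal endothelial markers 2 were also higher at an unadjusted p under 0.05, *Kdr* with a log2 fold change of 0.79 and *Ptprb* with 0.77, and the part of endothelial RNA in the *Ets1* level was not tested.

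For *Id1* and *Id3*, 5 relatives and E protein partners (*Id2*, *Id4*, *Tcf3*, *Tcf4* and *Tcf12*) gave 0 genes past an unadjusted p of 0.05. *Id2*, the most abundant of them, was at 152, 141 and 175 CPM in WT and at 175, 159 and 165 CPM across the Lpcat3KOMac mice. Upstream of the Id genes, 1 of 21 BMP, TGF-beta and SMAD genes was lower and 0 were higher, with a median log2 fold change of 0.02. That gene was *Smad7*, the inhibitory SMAD that TGF-beta itself induces, at 48.7, 46.3 and 42.3 CPM in WT and 32.8, 40.1 and 38.6 CPM across the Lpcat3KOMac mice. Its groups did not overlap, and the log2 fold change was -0.30 ± 0.11 (SE, unadjusted p = 0.0352). The most abundant gene of the list, the receptor *Tgfbr2*, was at 250, 354 and 267 CPM and at 286, 277 and 318 CPM.

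Of 15 Notch pathway genes 0 passed an unadjusted p of 0.05, and the median log2 fold change was 0.20. *Notch2*, the most abundant receptor, was at 79.3, 127 and 105 CPM in WT and at 109, 84.0 and 108 CPM across the Lpcat3KOMac mice. The groups did not overlap for 2 low genes of the 15, against 7.49% of all genes. These were the ligand *Dll1* and the Notch target *Nrarp*, both higher in Lpcat3KOMac mice and at most 2.14 and 2.48 CPM in any mouse.

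Around *Spic*, 1 of 8 genes of heme handling and BACH1 was lower at an unadjusted p under 0.05 and 0 were higher. *Blvrb*, encoding a biliverdin reductase, was at 261, 267 and 251 CPM in WT and at 206, 208 and 233 CPM across the Lpcat3KOMac mice. The groups were apart, with a log2 fold change of -0.27 ± 0.085 (SE, unadjusted p = 0.0199). *Slc40a1*, encoding the iron exporter ferroportin, was the most abundant, at 5130, 6990 and 4760 CPM and at 4940, 4560 and 5970 CPM, and like *Spic* it was highest in WT mouse 2 and in Lpcat3KOMac mouse 3 within the genotypes.

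Of 17 other macrophage transcription factors tested 1 was lower and 0 were higher, with a median log2 fold change of -0.011. *Klf2*, a factor that restrains inflammatory activation and is strong in endothelial cells, was at 138, 186 and 160 CPM in WT and 126, 75.4 and 114 CPM across the Lpcat3KOMac mice, a log2 fold change of -0.62 ± 0.22 (SE, unadjusted p = 0.0319). *Rxra*, the partner of the LXR receptors and the most abundant of the list, was at 807, 904 and 629 CPM and at 635, 733 and 710 CPM. *Klf2* was also the 1 gene of the 17 whose groups did not overlap.

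Of 14 Kupffer cell and macrophage products 3 were lower at an unadjusted p under 0.05 and 0 were higher, and the median log2 fold change was -0.25. The lectin gene *Clec4f* had a log2 fold change of -0.44 ± 0.17 (SE, unadjusted p = 0.0423), and the folate receptor gene *Folr2* one of -0.45 ± 0.16 (SE, unadjusted p = 0.0303). The third was *Lyz2*, the locus into which the Cre was inserted, at -1.42 ± 0.30 (SE, unadjusted p = 0.00351). The intact and the Cre-carrying allele were not measured apart, and the part of the Cre insertion in its level was not tested. The monocyte markers *Chil3* and *F13a1* had higher mean levels in Lpcat3KOMac mice, and the part of monocytes in these lower levels was not tested. *Cd5l*, the most abundant product, was at 9770, 11800 and 10800 CPM in WT and at 9010, 8320 and 10500 CPM across the Lpcat3KOMac mice. Of 13 immediate early and heat shock genes, which respond to cell isolation, 1 was higher at an unadjusted p under 0.05, *Atf3* (log2 fold change 0.58 ± 0.23, SE), and their sum was highest in WT mouse 2 at 1700 CPM and lowest in Lpcat3KOMac mouse 2 at 948 CPM.

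How far these pathway genes rest on single libraries was seen by fitting them again without WT mouse 1, without Lpcat3KOMac mouse 2, without both, with the hepatocyte covariate and with total counts alone, a check added after the values were seen. Of the 7 transcription factor and pathway genes named with an unadjusted p under 0.05, the C/EBP gene *Cebpg* and the ETS gene *Ets1* stayed under 0.05 in edgeR in all 5 settings. These genes had been picked by that p in the same libraries, so staying under 0.05 is no independent evidence. How many of all genes picked in this way would stay under 0.05 was not determined. The log2 fold change of *Cebpg* lay between -0.39 and -0.29 and that of *Ets1* between 0.41 and 0.58. *Cebpd* had an unadjusted p of 0.0536 with total counts alone and *Klf2* one of 0.0706, with *Cebpd* at -0.45 and *Klf2* at -0.53. *Smad7*, *Blvrb* and *Irf7* lost an unadjusted p under 0.05 in several settings. With total counts alone they had 0.0864, 0.119 and 0.074. Without WT mouse 1 *Smad7* had 0.0777 and *Irf7* 0.0866. Without Lpcat3KOMac mouse 2 the values were 0.0549 for *Smad7*, 0.0852 for *Blvrb* and 0.118 for *Irf7*. Without both mice *Blvrb* had 0.0724 and *Irf7* 0.167. The other mice were not left out in turn for these pathway genes. Of the Kupffer cell and macrophage products, *Clec4f* and *Folr2* lost it with total counts alone (0.106 and 0.0707), without Lpcat3KOMac mouse 2 (0.129 and 0.106) and without both mice (0.0975 and 0.10), and *Clec4f* with the covariate too (0.0529), so that *Lyz2* was the 1 of these 3 products that kept it in all 5 settings. *Atf3* lost it without WT mouse 1 (0.0699). No pathway gene passed an adjusted p of 0.05 in any of these settings.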

How the data were processed

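The deposited files held counts: the authors counted reads per Ensembl gene in 6 libraries (1 mouse each), without normalization. The submitters' processing notes name Trimmomatic 0.36, STAR 2.5.2b, featureCounts, Subread 1.5.2 and GRCm38, and the settings for strand and for reads that match several places are not given in the sources used here. The comparison of genotypes used edgeR 4.0.16 (R 4.3.3, TMM, default expression filter with a minimum count of 10, robust quasi-likelihood test, genotype as the only term), with Benjamini-Hochberg adjustment over the 16134 genes tested. Intervals are at 95%, and log2 CPM for likeness used a prior count of 2. RPKM is TMM-scaled CPM per kilobase of the exonic length in the files. The 9 members and the gene lists were chosen with earlier results of these data known. Named were all members, pathway list genes with an unadjusted p under 0.05, the most abundant gene of each pathway list, the 2 genes most like each member, *Lpcat3*, and genes that overlap a member. Single markers of other cell types, *Irf2*, *Irf9*, *Dll1*, *Nrarp*, *Cd163*, *Marco* and *Timd4* were named after their values were seen. Some named-gene results are not reported here. DESeq2 1.42.0 and limma-voom (limma 3.58.1) were alternatives. Tested on simulated data with 200 changed genes (log2 change 2) and the common dispersion of the data, edgeR recovered 72% and called 5 unchanged genes. Recovery of differences as small as those of the members was not tested. In the fit of the 6 libraries *Lpcat3*, at a log2 fold change of -1.56, did not pass an adjusted p of 0.05. The 72% is therefore not to be read as the share of changes found in these mice.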

Additional observations from a re-analysis of the deposited data

How the results depend on the processing

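The count of genes called at an adjusted p under 0.05 was 0 in edgeR under every alternative of scaling, filter, dispersion, covariate, replicate block and left-out mice, and 0 with limma-voom, but 11 with DESeq2. Genes with an unadjusted p under 0.05 numbered 426, and 1457 with the hepatocyte covariate, between 179 and 2028 with 1 mouse left out (the highest without WT mouse 1, the lowest without Lpcat3KOMac mouse 1, with 227 without WT mouse 2 and 245 without Lpcat3KOMac mouse 2), and 1767 without WT mouse 1 and Lpcat3KOMac mouse 2, an alternative chosen after seeing the data. Members with an unadjusted p under 0.05 numbered 1 (*Id3*) with no low-count filter (526 genes, 1.89% of all), with the covariate and without these 2 mice, and between 0 and 1 with 1 mouse left out (*Id3* without WT mouse 1, *Cebpb* without WT mouse 2). Members whose groups did not overlap numbered between 0 and 3 with 1 mouse left out (3 without WT mouse 1, 1 without WT mouse 2 and 1 without Lpcat3KOMac mouse 1, against 32.2%, 12.4% and 10.3% of all genes), 3 without WT mouse 1 and Lpcat3KOMac mouse 2 (41.2% of all genes), and 1 relative to the geometric mean of the members. For the scale of the geometric mean the share of all genes was not determined.

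Of 144 alternative log2 fold changes of members, 130 kept their direction, and the smallest adjusted p was 0.155. *Zeb2* turned to 0.055 with total counts alone, 0.013 with limma-voom and 0.10 with the covariate, and ranged from -0.23 to 0.23 with 1 mouse left out, above 0 without WT mouse 2, Lpcat3KOMac mouse 1 or Lpcat3KOMac mouse 2. *Spic* ranged from -0.23 to 0.30, *Rbpj* from -0.088 to 0.19 and *Irf8* from -0.088 to 0.13 with 1 mouse left out, below 0 without WT mouse 1 and for *Spic* also without Lpcat3KOMac mouse 3, and they stood at -0.10, -0.032 and -0.11 without WT mouse 1 and Lpcat3KOMac mouse 2. The cause was not tested.

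The labels do not say whether same-numbered mice were paired. Same-numbered mice deviated from their group means with correlations of -0.303, -0.596 and 0.36. The highest correlation, 0.666, was between WT mouse 1 and Lpcat3KOMac mouse 2, the mice with the most hepatocyte RNA. A pairing could be hidden under such differences, so these correlations cannot decide on it. With the replicate block 138 genes had an unadjusted p under 0.05, *Id3* was at -0.30 and *Zeb2* turned to 0.015, and no member passed. With 3 mice per genotype the intervals of the members reach from 60.8% to 167% of WT for *Spic* and from 76.6% to 109% for *Maf*.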
